A study of Mus musculus with 16 samples.

Results

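This account concerns what still separated mouse kidneys given cisplatin together with NMN from kidneys given PBS. Whole kidneys of wild-type mice were compared in 8 of the series' 16 RNA-seq libraries: 4 labelled PBS (phosphate-buffered saline), and 4 from the group that received NMN and cisplatin, called the NMN libraries below. The libraries were chosen by the group named in their titles, and no measured value was used to choose them. NMN (nicotinamide mononucleotide) is a precursor of NAD, and by the labels it was injected before cisplatin, a platinum drug that crosslinks DNA; kidneys were taken 3 days after cisplatin. The other groups, 4 libraries with cisplatin alone and 4 with cisplatin and NR (nicotinamide riboside, another precursor of NAD), entered the same statistical model and are cited only for scale. The sources used here do not give doses, strain, age or sex, and the design holds no group with NMN and without cisplatin. Whether the 4 libraries of a group stem from different mice is not labelled, and the p-values therefore describe only how far these samples vary, which could be a technical spread.

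Cisplatin enters tubule cells, mainly of the proximal tubule, through organic cation transporters, and its DNA adducts stall replication and transcription. Damaged tubule cells stabilise the transcription factor p53, stop dividing, lose transporters, and express embryonic, keratin and acute phase genes and chemokines. NAD is the substrate of PARP enzymes, which consume it at damaged DNA, and of sirtuins, and in the kidney it is made from tryptophan, from nicotinamide and from the precursors NR and NMN.

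The values are TPM, transcript abundances corrected for gene length and scaled to a fixed total, and the read depth behind them is unknown. A gene was tested if it reached 1 TPM in at least 4 of the 16 libraries, and changes are differences of log2(TPM + 1), which understate the change of genes with low values. The text uses rose, fell and changed for an adjusted p under 0.05 in limma over all 12960 tested genes. Kidney identity was plain in both groups: the PBS libraries held 3086, 3448, 3271 and 3214 TPM of Slc34a1, which marks the proximal tubule, and the NMN libraries held 2324, 2506, 2108 and 2663 TPM. The mitochondrially encoded mRNAs made up 25.03% to 34.03% of the listed TPM with PBS and 22.7% to 28.4% in the NMN libraries. No 2 of these libraries held identical values, and correlations across genes, which are not independent replicates, were 0.952 to 0.973 between a PBS and an NMN library. On the second principal component PBS libraries 1 and 4 (-30.02 and -17.85) lay apart from PBS libraries 2 and 3 (11.61 and 5.314). PBS library 1 had the lowest weight of all 16 libraries, 0.566, when limma estimated a weight for each.

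Residual differences from PBS were almost all increases. In the NMN libraries 763 genes were higher than with PBS (5.89% of the 12960 tested) and 15 were lower (0.116%). At least 2-fold higher were 329 genes (2.54%), with log2 changes of called genes from 0.33 to 7.12 and a median of 0.90. No gene was called at least 2-fold lower in limma, where 355 genes were lower at an unadjusted p under 0.05 (2.74%), and the fall of the 15 lower genes ran from 0.33 to 0.62 on the log2 scale. The median change of all tested genes was 0.045. Cisplatin alone, set beside the same PBS libraries, gave 5278 genes higher (40.7%) and 2415 lower (18.6%), and cisplatin with NR gave 1139 (8.79%) and 157 (1.21%); these comparisons share the PBS libraries. Of the calls, 98.1% were increases, a share that was 88.5% after median-of-ratios scaling (736 higher, 96 lower) and 83.6% after quantile normalization (673 and 132). Without NMN library 3 the higher genes numbered 506, and the lower genes numbered between 5 and 45 as single libraries were left out.

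**Figure D1:**
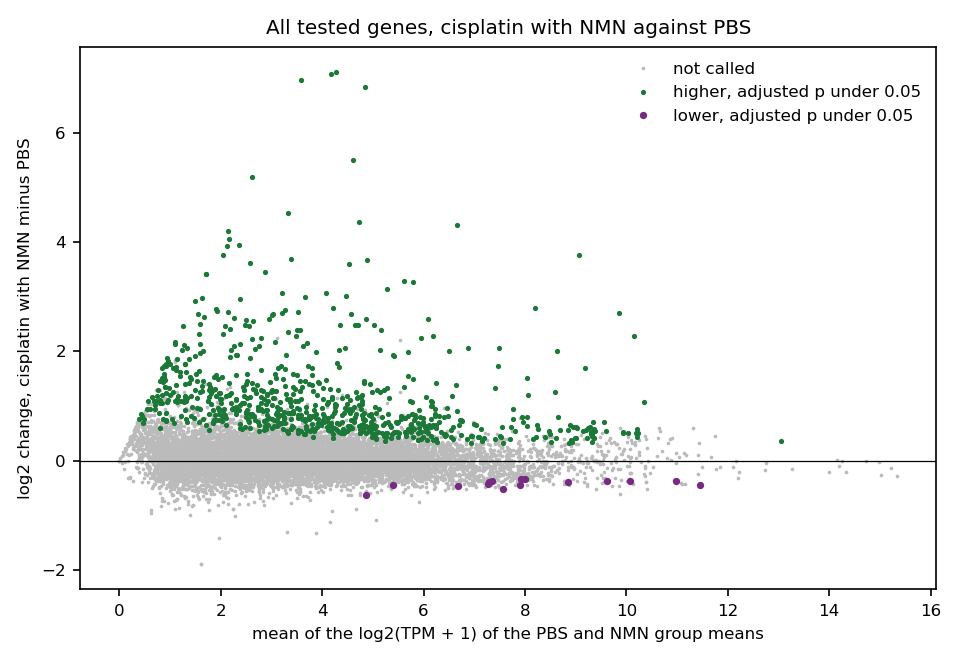
Change between PBS and the NMN libraries (log2 units, vertical axis) against the mean of both groups' log2(TPM + 1) (horizontal axis) for the 12960 tested genes, with the 763 higher genes in green and the 15 lower genes in purple. Increases reach 7.12, whereas every decrease that was called is smaller than 0.62 in size or equal to it and lies among genes of moderate to high level.

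Markers of tubular injury were among the genes raised most above PBS. Of 28 measured genes of a list of injury and dedifferentiation markers, 24 rose, none fell, and the median change was 2.03 against 0.045 for all genes. In 24 genes the lowest NMN library was above the highest PBS library (8.77% of all genes). Without NMN replicate 4 the count that rose was 26, and it was 24 or more without any other library. The median of the same list with cisplatin alone was 3.89.

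Havcr1 (kidney injury molecule 1, chr11:46735080-46779578, GRCm38), a receptor by which injured tubule cells take up dead cells, was listed at 0.13, 1.61, 0.16 and 0.63 TPM with PBS. The NMN libraries held 301, 181, 308 and 122 TPM, so the lowest NMN library was far above the highest PBS library. The change was 7.12 ± 0.28 (SE, log2 scale, adjusted p = 1.71e-11), and the mean of 228 ± 91.6 TPM (SD, n = 4) was 18.9% of the mean with cisplatin alone.

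Krt20 (chr11:99428403-99438150), a keratin that tubules express after injury, was at 0.03, 0.09, 0 and 0 TPM with PBS and at 168, 109, 195 and 75.2 TPM in the NMN libraries. Its change was 6.97 ± 0.22 (adjusted p = 4.02e-13), from a PBS level that was at or near 0 in every library. Lcn2 (chr2:32384633-32388252), which encodes the iron-siderophore binding protein NGAL, was at 0.41, 3.70, 1.30 and 1.46 TPM with PBS and at 228, 275, 531 and 186 TPM in the NMN libraries (change 6.83 ± 0.31, adjusted p = 2.16e-10). For all 3 of these genes NMN library 4 held the lowest NMN value and was above every PBS library, and NMN library 3 held the highest.

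S100a6 (chr3:90612882-90624181) and S100a10 encode calcium-binding proteins of the S100 family. S100a6 was at 12.4, 34.01, 29.1 and 12.98 TPM with PBS and at 622, 331, 547 and 268 TPM in the NMN libraries (change 4.31 ± 0.31, adjusted p = 8.86e-08). S100a10 went from 196 ± 26.6 TPM to 797 ± 177 TPM (SD, n = 4 each), a change of 2.00. The injury-marker genes whose change did not pass the test were Areg, Vcam1, Tmsb10 and Vim, named here because they complete the list. Vcam1, an adhesion molecule, had 1.58, 6.16, 4.03 and 1.96 TPM with PBS and 5.48, 6.43, 6.22 and 2.93 TPM in the NMN libraries, and these ranges overlapped (adjusted p = 0.303). Areg, an EGF receptor ligand, was listed at 0 in each PBS library and in NMN library 4, and at 0.62 to 2.11 TPM in the other NMN libraries (adjusted p = 0.0564).

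**Figure D2:**
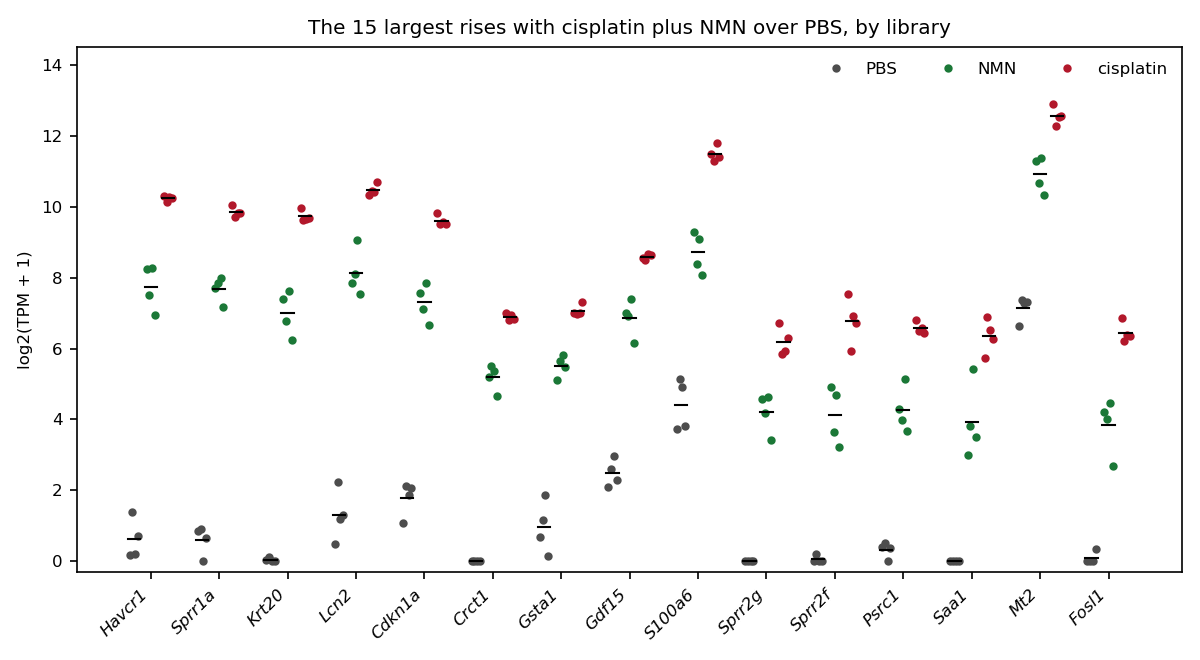
Level of the 15 genes with the largest increases in each PBS, NMN and cisplatin library, as log2(TPM + 1) on the vertical axis; points are single libraries and bars are group means. The 4 NMN libraries lie above all PBS libraries because only such genes were chosen, and the NMN means lie below those of cisplatin alone.

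Genes of the cornified envelope, the crosslinked protein layer of the skin surface, were among the largest increases. Of 18 measured keratin and cornified envelope genes, 11 rose and none fell, with a median of 1.75. Sprr1a (chr3:92483952-92485895), a small proline-rich crosslinking substrate, was at 0.81, 0.88, 0 and 0.59 TPM with PBS and at 207, 228, 254 and 144 TPM in the NMN libraries. Its change of 7.07 ± 0.20 (adjusted p = 1.08e-13) had the smallest SE of the 4 largest increases, and the lowest NMN library was at 144.05 TPM. Crct1 (chr3:93014205-93015687), of the same gene cluster, was listed at 0 in all 4 PBS libraries and at 35.95, 44.8, 40.6 and 24.1 TPM in the NMN libraries (adjusted p = 4.02e-13). Sprr2g was also listed at 0 with PBS and at 23.04, 17.1, 24.01 and 9.78 TPM in the NMN libraries (adjusted p = 1.51e-09). Sprr2f was at 0, 0.16, 0 and 0 TPM with PBS and at 28.9, 11.4, 24.9 and 8.32 TPM in the NMN libraries (adjusted p = 2.81e-07). Genes of the Sprr2 family are near-identical in sequence, so how reads were divided between them is uncertain. Krt5, a keratin of basal cells of the urinary tract lining, was listed at 0 in each PBS library and at 1.28, 0.85, 1.80 and 0.76 TPM in the NMN libraries (adjusted p = 0.00695); it was the only one of 7 urothelial markers that reached the level for testing, and the summed TPM of the 7 was 0.58 to 1.42 with PBS and 1.51 to 3.6 in the NMN libraries. The part of urothelium in the keratin increases was not tested.

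The AP-1 motif is the site of FOS and JUN family dimers, and its part in the increases was not tested. The promoters of Sprr1a and Sprr2f are shown because both genes were near 0 with PBS and both hold it. They are the 250 bases before the start of each gene in RefSeq (GRCm38.p6), 5′ to 3′ on the strand of the gene, with matches to TGANTCA, searched on both strands, in capitals. Sprr1a lies on the minus strand (chr3:92485882-92486131) and Sprr2f on the plus strand (chr3:92364937-92365186).
Sprr1a: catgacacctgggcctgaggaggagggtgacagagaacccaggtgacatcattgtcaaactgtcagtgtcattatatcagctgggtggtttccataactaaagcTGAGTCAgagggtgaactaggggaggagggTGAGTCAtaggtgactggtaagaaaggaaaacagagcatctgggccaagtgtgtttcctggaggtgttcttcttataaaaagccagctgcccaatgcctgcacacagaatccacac
Sprr2f: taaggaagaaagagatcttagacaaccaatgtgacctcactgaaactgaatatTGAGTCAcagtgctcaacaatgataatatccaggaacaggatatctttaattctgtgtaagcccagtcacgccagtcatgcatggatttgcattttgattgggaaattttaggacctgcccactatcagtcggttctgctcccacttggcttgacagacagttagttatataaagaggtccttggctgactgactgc
Sprr1a held 2 matches and Sprr2f 1. Of all 27025 promoters in the table, 6.81% held the motif, as did 4.28% of those of tested genes and 9.24% of those of genes that rose. Among the 15 genes with the largest increases, 12 had a promoter in the table, and those with a match were Sprr1a, Sprr2f and Mt2. A match describes these letters and is not evidence of a bound site.

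Immediate early genes, transcription factors and signalling regulators that respond within minutes of stress or growth factor signals, were raised at 3 days. Of 20 measured, 15 rose and none fell, with a median of 0.99. Fosl1 (chr19:5447547-5455946), an AP-1 subunit, was listed at 0 in 3 PBS libraries and at 0.28 TPM in the other, and at 17.6, 15.2, 21.2 and 5.43 TPM in the NMN libraries (change 3.76 ± 0.31, adjusted p = 1.97e-07). Its exons overlap those of Ccdc85b on the opposite strand by 1163 bases, and the sources used here do not say whether the counting used strand. The exons of Junb, Rpl15, Bak1, Mcm7, Irf7, Tap1, Nfkb2, Csf1r, Bst1, Cyp24a1 and Slc5a2, all described below, likewise overlap a tested gene on the opposite strand. Junb, another AP-1 subunit, was at 6.25, 13.7, 9.25 and 6.80 TPM with PBS and at 38.5, 40.2, 51.5 and 26.4 TPM in the NMN libraries (change 2.03). Egr1, a zinc finger transcription factor, went from 3.49 ± 1.48 TPM to 21.7 ± 6.34 TPM (SD, n = 4 each, change 2.35), with no overlap between the groups. The members that did not pass the test were Klf2, Nr4a1, Dusp1, Egr2 and Klf4.

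Targets of p53 were higher as a group. Of 29 measured, 23 rose and none fell, with a median of 1.12 beside 2.93 for cisplatin alone, and between 21 and 23 rose when single libraries were left out. Cdkn1a (chr17:29090976-29100727), the cyclin-dependent kinase inhibitor p21 that halts the cell cycle, was at 1.13, 3.33, 2.68 and 3.23 TPM with PBS and at 188, 139, 231 and 101 TPM in the NMN libraries. The change was 5.51 ± 0.24 (adjusted p = 7.34e-11), and the NMN mean was 21% of that with cisplatin alone. Gdf15 (chr8:70629393-70632456), a secreted stress hormone of the TGF-beta family, was at 3.29, 5.05, 6.90 and 3.95 TPM with PBS and at 128, 119, 167 and 70.5 TPM in the NMN libraries (change 4.37 ± 0.21). Phlda3, a repressor of AKT signalling, went from 4.7 ± 1.18 TPM to 48.7 ± 18.7 TPM (SD, n = 4 each, adjusted p = 1.53e-07). Psrc1, a microtubule-associated protein, was at 0 to 0.43 TPM with PBS and at 18.8, 14.8, 34.1 and 11.7 TPM in the NMN libraries (adjusted p = 2.89e-09). In each of these 4 genes NMN library 3 was highest and NMN library 4 lowest, and NMN library 4 was still above all PBS libraries.

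By count of calls alone, DNA repair and cell cycle genes rose at about the rate of all tested genes, of which 5.89% rose. Of 22 measured cell cycle genes, 20 had an estimate above 0, with a median of 0.25 beside 0.045 for all genes. In 5 of them every NMN library was above every PBS library (8.77% of all genes). Of 21 repair genes, 15 had an estimate above 0, with a median of 0.15, and 2 were higher without overlap. Of 21 measured genes of crosslink and excision repair, 1 rose: Ercc1 (chr7:19344778-19356524), a nuclease subunit that incises beside platinum adducts, with 7.75, 6.10, 9.10 and 14.03 TPM for PBS and 88.3, 64.95, 67.6 and 22.03 TPM for the NMN libraries (change 2.49 ± 0.32, adjusted p = 7.36e-05). NMN library 4, at 22.03 TPM, was well below the other NMN libraries here, and the exons of Ercc1 overlap those of Cd3eap on the opposite strand by 106 bases. Of 22 cell cycle and replication genes, Mcm7, a subunit of the replicative helicase, was the single gene that rose (from 6.91 ± 2.11 to 13.6 ± 2.27 TPM, SD, n = 4 each, adjusted p = 0.0023), and 6 were higher at an unadjusted p under 0.05 (13.7% of all genes). Mki67, the proliferation marker, stayed below the level for testing, at 0.48, 0.37, 0.71 and 0.23 TPM with PBS and 0.45, 0.53, 0.78 and 0.56 TPM in the NMN libraries. Among 18 cell death genes, 3 rose: Bcl2l1, which opposes apoptosis, Bak1, which promotes it, and Acsl4, which loads membranes with the fatty acids that ferroptosis oxidises. Bcl2l1 went from 47.7 ± 10.1 to 81.5 ± 12 TPM, Bak1 from 6.23 ± 0.305 to 11.4 ± 2.33 TPM and Acsl4 from 6.95 ± 0.947 to 13.7 ± 2.25 TPM (SD, n = 4 each), with changes of 0.78, 0.76 and 0.88.

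Acute phase genes, best known from liver, rose in kidney. Of 18 measured, 9 rose and none fell, with a median of 1.32. Saa1 (chr7:46740497-46742980), serum amyloid A, was listed at 0 in each PBS library and at 6.92, 13.2, 41.9 and 10.3 TPM in the NMN libraries (adjusted p = 9.06e-05), so NMN library 3 was several times the others. In the fibrinogen genes Fgg and Fga NMN library 3 was likewise far above the others, whose order differed from gene to gene. Fgg was at 4.85, 5.31, 5.62 and 4.34 TPM with PBS and at 51.2, 62.2, 191 and 43.9 TPM in the NMN libraries (change 3.60 ± 0.35), and Fga was at 5.04, 4.65, 7.67 and 6.68 and at 48.9, 40.3, 156 and 29.5 TPM (change 3.02 ± 0.38). Reads from Saa1 and its close relatives may have been divided uncertainly. C3, the central complement protein, was the single gene of 14 complement genes that rose, beside 5.89% of all genes, from 4.12 ± 2.51 TPM to 26 ± 11.3 TPM (SD, n = 4 each, adjusted p = 0.000116).

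Of 19 measured cytokines and chemokines, 9 rose and none fell, with a median of 0.63. Cxcl1, which attracts neutrophils, was at 0.25, 2.51, 1.72 and 0.57 TPM with PBS and at 29.5, 18.4, 31.2 and 12.9 TPM in the NMN libraries (change 3.45 ± 0.32, adjusted p = 9.32e-07). Cxcl2, which acts on the same receptor, was at 0 to 0.57 TPM with PBS and at 7.11, 6.54, 8.78 and 3.51 TPM in the NMN libraries. Lif, a cytokine of the interleukin 6 family, was at 0.12 TPM or less with PBS and at 10.5, 6.53, 12.2 and 2.97 TPM in the NMN libraries. Ccl2, the main attractant of monocytes, was at 0, 1.16, 0.52 and 0.35 TPM and at 3.37, 4.37, 2.04 and 1.99 TPM (change 1.40 ± 0.27, adjusted p = 0.00252), and its groups did not overlap. Tnf and Il6 stayed below the level for testing: no library of either group reached 0.6 TPM of Tnf or 0.4 TPM of Il6.

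Of 14 measured macrophage and monocyte markers, 2 rose, where 5.89% of all tested genes rose. They were Cd68 (3.48 ± 2.1 to 34.4 ± 12.4 TPM) and Cd14 (1.83 ± 1.21 to 12.1 ± 4.65 TPM, SD, n = 4 each). The median of the 14 markers was 0.04, or -0.03 after median-of-ratios scaling. The part of macrophages and monocytes in the cytokine increases was not tested. Cd68 is a lysosomal protein and Cd14 the co-receptor for bacterial lipopolysaccharide. Csf1r, the receptor that defines the lineage, had 17.3 ± 4.61 TPM with PBS and 12.1 ± 1.21 TPM in the NMN libraries (change -0.45, adjusted p = 0.142); after median-of-ratios scaling it was called lower (change -0.52, adjusted p = 0.0218, with 0.0133 to 0.377 over its settings). Adgre1, the F4/80 antigen, was at 0.41, 1.42, 1.13 and 0.82 TPM and at 0.54, 1.92, 0.99 and 0.91 TPM and overlapped. The summed level of the macrophage list was 53.6 to 134 TPM with PBS and 93.3 to 170 TPM in the NMN libraries. Among 12 neutrophil markers 4 could be tested, with a summed level of the list of 2.24 to 12.7 TPM with PBS and 2.72 to 12.3 TPM in the NMN libraries, and none was called in limma or had an unadjusted p under 0.05. In bulk kidney, fewer cells of a type and less RNA per cell cannot be told apart.

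Interferon-stimulated genes rose in part. Of 41 measured, 10 rose and none fell, with a median of 0.44 beside 1.41 for cisplatin alone, and without NMN library 3 the count was 6. Isg20, an exonuclease that degrades viral RNA, was at 1.24, 2.16, 3.13 and 1.86 TPM with PBS and at 13.3, 7.33, 19.1 and 9.19 TPM in the NMN libraries (change 2.05 ± 0.27, adjusted p = 5.92e-05). Oasl1, a member of the oligoadenylate synthetase family, was at 1.01, 0.72, 1.22 and 2.09 TPM and at 12.3, 5.68, 9.65 and 5.67 TPM (change 2.02 ± 0.23). Irf7, the transcription factor that amplifies type I interferon, went from 6.6 ± 1.62 TPM to 20.1 ± 5.9 TPM, and Ifi27 from 52.3 ± 7.97 TPM to 103 ± 22 TPM (SD, n = 4 each). The groups did not overlap in any of these 4 genes.

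The sensors upstream of interferon showed no call. Ddx58, which encodes RIG-I, a sensor of foreign RNA, was at 5.34, 7.17, 6.22 and 4.09 TPM with PBS and at 6.22, 9.92, 11.8 and 5.54 TPM in the NMN libraries (change 0.45, 95% interval 0.01 to 0.89, adjusted p = 0.292). Ifih1, the related sensor MDA5, had a change of 0.18 (interval -0.23 to 0.60), and Mavs, the mitochondrial adaptor of both, 0.09 (interval -0.20 to 0.37). Tmem173, which encodes STING, the adaptor for cytosolic DNA, was at 0.75, 2.86, 2.44 and 1.99 TPM and at 1.57, 4.47, 4.62 and 2.79 TPM and overlapped (adjusted p = 0.42). Mb21d1, the DNA sensor cGAS, was below the level for testing at 0.41 TPM or less in all 8 libraries. Of 25 genes of nucleic acid sensing and NF-kB signalling, 23 had an estimate above 0, with a median of 0.49 beside 0.045 for all genes. At an unadjusted p under 0.05, 13 were higher (13.7% of all genes), and 7 were called higher after median-of-ratios scaling. In the main fit 5 rose, and without PBS library 2 or without NMN library 4 it was 8. Apart from Irf7 these were genes of NF-kB signalling: Nfkb2 (5.96 ± 1.13 to 15.4 ± 3.59 TPM) and Relb (2.96 ± 1.06 to 7.96 ± 2.67 TPM), subunits of NF-kB, Tnfaip3 (0.887 ± 0.349 to 2.81 ± 1.02 TPM, SD, n = 4 each), which restrains it, and Rela. Of 16 genes of class I antigen presentation, 4 rose: Tap1, H2-K1, Psmb10 and Tapbp. Tap1, the peptide transporter, was at 2.30, 4.72, 7.92 and 3.62 TPM and at 12.3, 9.50, 14.3 and 7.53 TPM, and the highest PBS library exceeded the lowest NMN library. The number that rose was 1 without PBS library 1, NMN library 2 or NMN library 3, and 2 without PBS library 4 or NMN library 1.

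The promoters of 3 interferon-stimulated genes that rose are shown for the interferon-response motif, at which STAT and IRF factors bind. They are again the 250 bases before the gene's start (RefSeq, GRCm38.p6, strand of the gene), with matches in capitals; the motif searched, on both strands, was GAAA, any 2 bases and GAAA again. Isg15 (chr4:156200819-156201068), Oas1a (chr5:120907526-120907775) and Bst2 (chr8:71537473-71537722) lie on the minus strand.
Isg15: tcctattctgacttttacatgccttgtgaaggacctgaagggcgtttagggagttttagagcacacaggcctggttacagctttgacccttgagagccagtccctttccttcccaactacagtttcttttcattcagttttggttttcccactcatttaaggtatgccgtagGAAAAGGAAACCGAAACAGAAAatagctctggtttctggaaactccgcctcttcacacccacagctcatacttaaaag
Oas1a: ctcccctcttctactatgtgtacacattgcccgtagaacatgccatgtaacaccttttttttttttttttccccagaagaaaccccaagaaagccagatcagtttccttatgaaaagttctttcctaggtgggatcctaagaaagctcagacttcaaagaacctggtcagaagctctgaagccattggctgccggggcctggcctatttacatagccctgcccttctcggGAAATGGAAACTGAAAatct
Bst2: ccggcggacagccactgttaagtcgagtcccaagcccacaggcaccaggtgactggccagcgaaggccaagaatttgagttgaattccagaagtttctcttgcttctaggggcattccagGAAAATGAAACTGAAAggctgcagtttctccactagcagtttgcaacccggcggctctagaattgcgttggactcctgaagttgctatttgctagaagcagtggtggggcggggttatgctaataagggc
Isg15 held 3 overlapping matches, and Oas1a and Bst2 held 2 each, also overlapping. The motif was in 3.06% of all promoters in the table. Among tested genes 2.6% of promoters held it, and among all genes that rose 3.7%. Of the 10 interferon-stimulated genes that rose, 9 had a promoter there, and 5 held a match: Isg15, Ifit3, Oas1a, Oas1g and Bst2. In the whole list of interferon-stimulated genes 10 of 30 promoters held a match (33.3%), so members that did not rise held it too. Isg15, a ubiquitin-like modifier, was at 5.35, 6.87, 4.38 and 6.43 TPM with PBS and at 14.1, 14.9, 19.3 and 15.97 TPM in the NMN libraries (adjusted p = 0.00124). Oas1a, an antiviral RNA sensor, was at 0.42, 1.63, 1.32 and 1.11 TPM and at 2.42, 2.44, 4.05 and 1.66 TPM (adjusted p = 0.0346). Bst2, which tethers budding virions, was at 13.8, 29.6, 33.7 and 18.5 TPM and at 45.4, 47.2, 53.2 and 28.1 TPM, with the highest PBS library above the lowest NMN library (adjusted p = 0.0489).

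Genes of stress defence rose selectively. Of 23 measured antioxidant genes and targets of NRF2, the activator of many such genes, 7 rose and none fell, with a median of 0.20. Gsta1 (chr9:78230656-78242684), a glutathione transferase, was at 0.62, 1.26, 2.65 and 0.11 TPM with PBS and at 33.9, 48.8, 54.9 and 43.95 TPM in the NMN libraries (change 4.54 ± 0.26, adjusted p = 2.67e-09). Its close relative Gsta2 was at 195, 349, 302 and 283 TPM and at 293, 424, 418 and 396 TPM and did not pass the test (adjusted p = 0.0975), and reads may have been divided between the pair uncertainly. Srxn1, which repairs oxidised peroxiredoxins, went from 20.9 ± 3.27 TPM to 82.8 ± 20.6 TPM, and Hmox1, which breaks down haem, from 22.5 ± 2.01 TPM to 57.5 ± 13.7 TPM (SD, n = 4 each). Fth1, the ferritin heavy chain, rose from 7465 ± 578 TPM to 9659 ± 1350 TPM (adjusted p = 0.043), a call that was lost in 11 alternatives, median-of-ratios scaling among them (adjusted p = 0.148, with 0.00447 to 0.3 over its settings).

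The metal-binding metallothioneins were the most abundant of the strongly raised genes. Mt2 (chr8:94172664-94173568) was at 97.9, 163, 153 and 159 TPM with PBS and at 2487, 1639, 2658 and 1283 TPM in the NMN libraries (change 3.77 ± 0.22, adjusted p = 3.23e-09). Mt1 was at 287, 412, 364 and 372 TPM and at 2677, 2239, 3131 and 1571 TPM (change 2.71 ± 0.19). Every NMN library was above every PBS library for both genes. The zinc importer Slc39a14 was at 12.5, 10.2, 15.2 and 15.7 TPM and at 17.4, 11.8, 24.97 and 15.8 TPM and overlapped (adjusted p = 0.391).

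Of 28 genes of the ATF4 response, which restores amino acid supply under stress, with the tRNA synthetases, 9 rose and none fell. The median was 0.43, and the count was 5 without PBS library 1 and also without NMN library 3. Atf3 went from 2.07 ± 0.768 TPM to 10.6 ± 4.08 TPM, Atf4 from 60.9 ± 8.46 TPM to 91.8 ± 6.73 TPM, and Phgdh, the first enzyme of serine synthesis, from 4.15 ± 0.9 TPM to 10.3 ± 3.79 TPM (SD, n = 4 each). Of 26 ribosomal protein genes, 13 rose and none fell. The median was 0.40, the summed level was 15213 to 19052 TPM with PBS and 19471 to 26269 TPM in the NMN libraries, and the count was 6 without PBS library 1 and also without NMN library 3, and 8 without PBS library 4 and also without NMN library 2. Rpl15 was at 342, 429, 374 and 369.8 TPM and at 580.1, 609, 633 and 567 TPM (change 0.66 ± 0.10, adjusted p = 0.000231). None of 27 proteasome genes was called in limma, with 6 higher at an unadjusted p under 0.05 (13.7% of all genes).

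**Figure D3:**
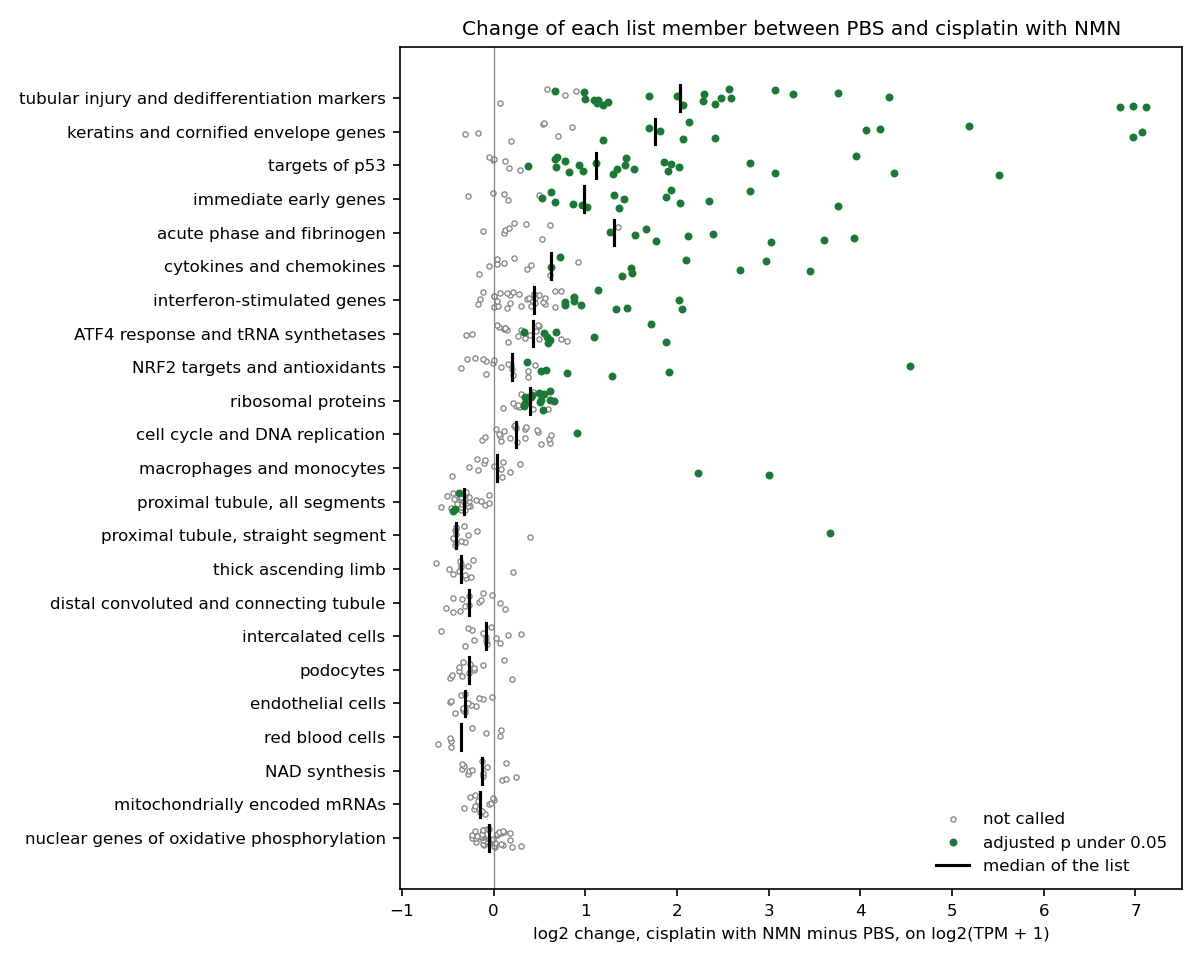
Change of every tested member of 23 gene lists between PBS and the NMN libraries (horizontal axis, difference of log2(TPM + 1)); filled points passed the test, open points did not, and bars are list medians. Injury, keratin, p53 and immediate early genes reach far to the right, and the lists of nephron segments lie at small negative values with few filled points.

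The 15 genes that fell included transporters and enzymes of the proximal tubule, and each had a mean well above that with cisplatin alone. Slc34a1 (chr13:55398187-55415592), which reabsorbs phosphate, fell by 0.44 on the log2 scale (SE 0.11, adjusted p = 0.0129) from 3255 ± 150 TPM to 2400 ± 239 TPM (SD, n = 4 each), or 73.7% of PBS, against 2.26% with cisplatin alone. The highest NMN library, NMN 4 at 2663 TPM, was below the lowest PBS library. The call was lost without NMN library 3 (adjusted p = 0.0656, with 0.00547 to 0.0656 over all settings), and the exons of Slc34a1 overlap those of Pfn3 on the opposite strand by 545 bases.

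Slc22a8, the organic anion transporter OAT3, was at 161, 203, 178 and 168 TPM with PBS and at 124, 150.1, 110.4 and 149 TPM in the NMN libraries (log2 change -0.42, adjusted p = 0.0473). Ass1, which makes argininosuccinate on the way to arginine, was at 2108, 2397, 2283 and 2378 TPM and at 1669.8, 1841, 1526 and 2037 TPM (log2 change -0.38, adjusted p = 0.0291). Both held 75.1% and 77.2% of the PBS mean, beside 3.52% and 11.7% with cisplatin alone. Slc47a1, the transporter MATE1 that secretes organic cations and cisplatin into the tubule lumen, was at 274, 272, 306 and 289.9 TPM and at 219.7, 233, 210.0 and 247 TPM (log2 change -0.33, adjusted p = 0.0369). Emx1, a homeobox transcription factor, had the largest decrease of the named genes: 27.4, 39.4, 38.4 and 36.5 TPM with PBS and 19.6, 23.1, 24.6 and 23.1 TPM in the NMN libraries (log2 change -0.62 ± 0.15, adjusted p = 0.019).

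The other genes that fell and were named by the rule were Susd2, Lpl, Cpq, Slc22a18, Car4, Tmem27, Cndp2, Pepd and Cmbl, with NMN means of 72.5% (Lpl) to 79.1% (Cmbl) of PBS. Cpq, Cndp2 and Pepd are peptidases, Car4 is a carbonic anhydrase of the brush border, Tmem27 is collectrin, a partner of amino acid transporters, and Lpl is lipoprotein lipase. The fifteenth gene, Gm10681, is a predicted gene whose NMN mean was 69.9% of PBS. The rule took only genes whose PBS and NMN libraries do not overlap. Each of the 14 genes it named lost its call in at least 1 alternative analysis, Slc34a1 in 1 and the others in 4 or more.

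**Figure D4:**
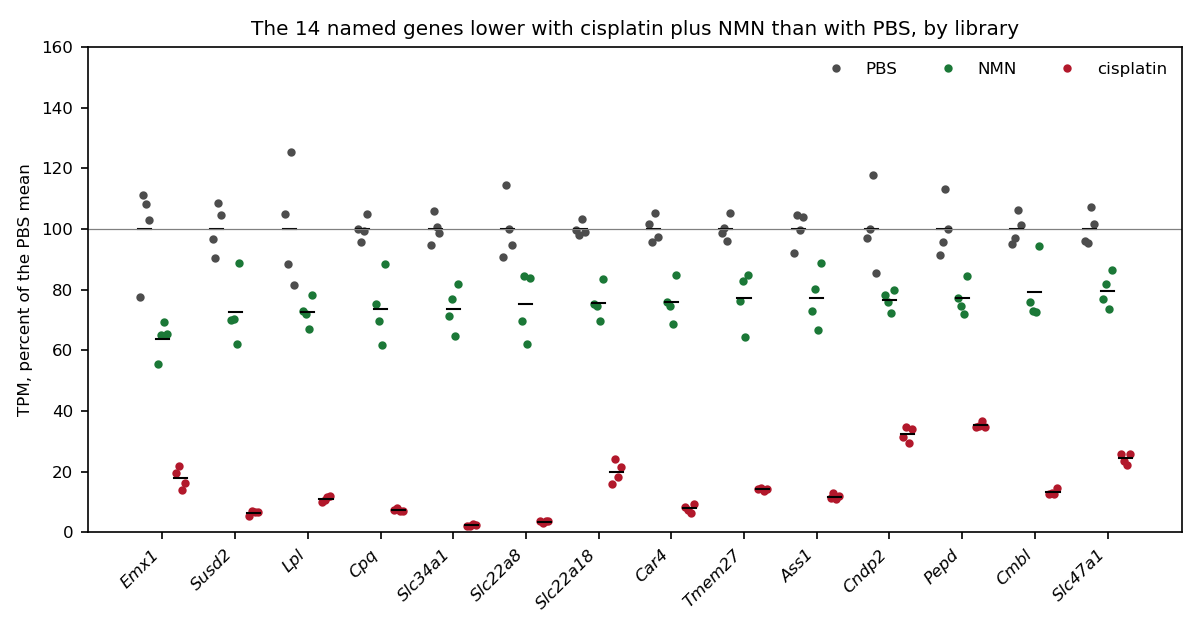
TPM of the 14 named genes that fell, as a percent of the PBS mean (vertical axis), in each PBS, NMN and cisplatin library; points are single libraries and bars are group means. The NMN means lie between 63.9% and 79.7% of PBS, and the cisplatin means between 2.26% and 35.3%.

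Across the proximal tubule as a whole the decrease was small and shared. All 32 measured genes of a proximal tubule list had an estimate below 0, with a median of -0.33 beside -2.73 for cisplatin alone. Of these, 3 passed the test, 18 were lower at an unadjusted p under 0.05 (2.74% of all genes), and 10 had no overlap between groups (1.46% of all genes). After median-of-ratios scaling the median was -0.40 and 5 genes passed. As single libraries were left out the number called was 0 (without NMN library 3) to 7 (without NMN library 4), and 1 without PBS library 2, 3 or 4 or NMN library 1. Lrp2, the megalin receptor that retrieves filtered proteins, was at 102, 91.3, 105 and 117 TPM with PBS and at 79.2, 76.00, 69.9 and 101 TPM in the NMN libraries (change -0.35, interval -0.64 to -0.06, adjusted p = 0.179). Slc5a2, the glucose transporter SGLT2, was at 268, 337, 299 and 295 TPM and at 254, 246, 206 and 235 TPM (adjusted p = 0.0535).

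The straight segment of the proximal tubule, where cisplatin injury is best known, had a median of -0.41 over 15 measured genes. None of them fell in limma, and 5 were lower at an unadjusted p under 0.05 (2.74% of all genes). Acy3, an aminoacylase, was at 2409, 2397, 3055 and 2696 TPM with PBS and at 1901, 1838, 1977 and 2107 TPM in the NMN libraries (adjusted p = 0.0845), without overlap. In this list 2 genes had an estimate above 0, and 2 were higher at an unadjusted p under 0.05 (13.7% of all genes). The 1 that rose in limma was Gc (chr5:89417522-89457898), the vitamin D binding protein. Gc went from 5.70, 10.4, 5.33 and 7.59 TPM to 108, 92.3, 156 and 66.9 TPM (change 3.67 ± 0.21, adjusted p = 2.43e-09), a level of 23.4% of cisplatin alone.

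No gene of the other nephron segments was called in limma. Estimates were below 0 for 12 of 13 thick ascending limb genes and 12 of 14 genes of the distal convoluted and connecting tubule. They were below 0 for 7 of 13 principal cell genes and 10 of 14 intercalated cell genes. The medians were -0.35 for 13 thick ascending limb genes, -0.27 for 14 genes of the distal convoluted and connecting tubule, -0.04 for 13 principal cell genes and -0.08 for 14 intercalated cell genes, and at an unadjusted p under 0.05 the counts lower were 0, 3, 1 and 2, where 2.74% of all genes were lower. Umod, the abundant urinary protein of the thick ascending limb, was at 354, 344, 595 and 979.5 TPM with PBS and at 290.4, 325, 469.8 and 803 TPM in the NMN libraries (change -0.25, interval -1.22 to 0.72). Slc12a3, the thiazide-sensitive transporter of the distal tubule, was at 369.6, 278, 257 and 438 TPM and at 278, 199, 185 and 331 TPM (change -0.44, interval -0.99 to 0.11). For both genes the PBS and NMN libraries overlapped, and both intervals include the size of change seen in Slc34a1.

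Endothelial, podocyte, fibroblast and dendritic cell markers likewise gave no call in limma and none at an unadjusted p under 0.05. This fit does not pair the libraries, and whether replicate numbers mark pairs is not labelled. By number, the summed level of each of these lists was lower in every NMN library than in the same-numbered PBS library. All 15 endothelial genes had an estimate below 0, with a median of -0.31, a summed level of 209 to 406 TPM with PBS and 193 to 318 TPM in the NMN libraries, and no gene without overlap. Plvap, of fenestrated capillaries, was at 52.5, 92.9, 89.95 and 55.96 TPM and at 38.5, 63.7, 59.5 and 44.2 TPM. The podocyte median was -0.27 over 13 genes, the fibroblast median -0.23 over 14 and the dendritic cell median -0.33 over 7. Haemoglobin genes, carried by red blood cells, were present in both groups: Hbb-bs was at 634, 1274, 1089.9 and 944 TPM with PBS and at 488, 944, 684 and 736 TPM in the NMN libraries (adjusted p = 0.683), beside a mean of 4.17 TPM with cisplatin alone. Adipocyte markers, from fat that may cling to a kidney, summed to 32.5 to 133 TPM with PBS and 36.9 to 116 TPM in the NMN libraries, and none was called.

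No gene that makes NAD passed the test. Of 14 measured, none was called in limma, 2 were lower at an unadjusted p under 0.05 (2.74% of all genes), and the median was -0.12. In 3 of them every NMN library was below every PBS library (1.46% of all genes). Afmid was 1 of these, with a change of -0.32 (limma adjusted p = 0.0903, with 0.0426 to 0.277 over its settings). Its exons overlap those of Tk1 on the opposite strand by 83 bases. Nampt, the rate-limiting enzyme of the salvage route from nicotinamide, was at 23.99, 25.1, 29.9 and 33.05 TPM with PBS and at 22.7, 31.6, 29.97 and 35.5 TPM in the NMN libraries (change 0.09, interval -0.25 to 0.42). Nmrk1, the kinase that turns NR into NMN, was at 45.1, 60.5, 55.7 and 53.04 TPM and at 42.6, 57.3, 51.99 and 46.9 TPM (change -0.11, interval -0.38 to 0.17). Qprt, which feeds NAD synthesis from tryptophan, was at 45.9, 53.7, 55.4 and 56.8 TPM and at 43.5, 45.1, 43.6 and 41.8 TPM (change -0.27, adjusted p = 0.424): the groups did not overlap, and the difference did not pass the test. Of 23 genes that consume NAD or clear nicotinamide, none was called in limma and 2 in each direction had an unadjusted p under 0.05. Of all genes, 13.7% were higher and 2.74% lower at that level. Bst1, an NAD-cleaving enzyme of the cell surface, was at 1.12, 1.12, 3.20 and 0.87 TPM and at 6.01, 4.63, 6.76 and 1.23 TPM (adjusted p = 0.0574). Nnmt, which methylates nicotinamide, was at 1.14 ± 0.748 TPM and 0.958 ± 0.88 TPM (SD, n = 4 each).

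Few mitochondrial genes passed the test. All 13 mitochondrially encoded mRNAs had an estimate below 0, with a median of -0.15 beside -0.93 for cisplatin alone, and none was called in limma or had an unadjusted p under 0.05. The 38 nuclear genes of oxidative phosphorylation had a median of -0.05, with none called and 1 lower at an unadjusted p under 0.05 (2.74% of all genes). Ppargc1a, the coactivator of mitochondrial biogenesis, was at 4.22, 5.83, 5.17 and 6.76 TPM with PBS and at 3.87, 5.41, 4.47 and 5.64 TPM in the NMN libraries (change -0.15, interval -0.52 to 0.22). In the citric acid cycle list 19 of 20 estimates were below 0, with a median of -0.17, and 4 genes were lower at an unadjusted p under 0.05 (2.74% of all genes). None of these fell in the test, and after median-of-ratios scaling 1 gene of the list was called lower. The gene that rose was Pdk4 (chr6:5483351-5496309), the kinase that shuts off pyruvate dehydrogenase, at 2.94, 5.69, 4.80 and 4.23 TPM with PBS and 16.5, 16.2, 19.8 and 12.4 TPM in the NMN libraries (change 1.68 ± 0.17, adjusted p = 2.81e-06).

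In few genes did all 4 NMN libraries lie above every PBS and cisplatin library (4 genes, 0.0309% of those tested) or below (3 genes, 0.0231%), and 1 of these was called against PBS (0.00772%). Cyp4a14 (chr4:115486200-115496142), a fatty acid omega-hydroxylase, was at 13.6, 13.04, 24.9 and 20.6 TPM with PBS, at 27.1, 41.8, 45.5 and 40.8 TPM in the NMN libraries and at 16.4, 21.6, 11.3 and 24.1 TPM with cisplatin alone. All 4 NMN libraries were thus above all 8 libraries of the other groups. The change from PBS was 1.09 ± 0.27 (adjusted p = 0.0202, with 0.0109 to 0.0826 over its settings), and it was lost without PBS library 1, PBS library 2, NMN library 2 or NMN library 3. The mean with cisplatin and NR was 62.3 TPM. Reads of Cyp4a14 and its near copies, such as Cyp4a10, may have been divided uncertainly: Cyp4a10, named here after its values were seen, was at 154, 122, 185 and 187 TPM with PBS and 188, 170.4, 224 and 199 TPM in the NMN libraries (adjusted p = 0.4). No other gene of 35 of fatty acid oxidation and its regulation rose, and none fell.

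Genes of phosphate and vitamin D handling moved in both directions. Of 12 measured, Gc, Slc20a1 and Cyp24a1 rose and Slc34a1 fell, where 5.89% of all tested genes rose and 0.116% fell. Cyp24a1, which inactivates vitamin D, was at 18.6, 21.7, 24.2 and 14.1 TPM with PBS and at 35.8, 37.2, 51.7 and 24.4 TPM in the NMN libraries (adjusted p = 0.0176). Slc20a1, a phosphate transporter of most cells, was at 15.1, 20.6, 21.8 and 14.6 TPM and at 27.4, 42.95, 34.2 and 24.4 TPM (adjusted p = 0.00476). Kl, the klotho co-receptor of the phosphate hormone FGF23, was at 131, 133, 148 and 183 TPM and at 94.96, 107, 87.3 and 156 TPM (change -0.44, interval -0.88 to -0.00). Of 15 genes that handle platinum, the exporter Slc47a1 fell and Abcb1b rose, so the share that rose was near the 5.89% of all tested genes. Abcb1b, a multidrug exporter, was at 1.94, 2.28, 3.51 and 4.82 TPM and at 5.30, 4.90, 10.8 and 5.78 TPM (adjusted p = 0.0265). Its call was lost in 5 alternatives, leaving out NMN library 3, PBS library 1 or PBS library 2 among them.

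The residual response differed in size among the NMN libraries. Among the 763 genes that rose, NMN library 3 was the highest of the 4 in 529 and NMN library 4 was the lowest in 557. NMN library 1 was highest in 122 and lowest in 79, and NMN library 2 was highest in 100 and lowest in 106. Among the 15 genes that fell, NMN library 3 was lowest in 14 and NMN library 4 highest in 13. The summed level of the 28 injury markers was 1446 to 2047 TPM with PBS, and 7659, 7214, 9850 and 4966 TPM in NMN libraries 1 to 4, beside 26411 to 28403 TPM with cisplatin alone. The first principal component placed NMN library 4 at -29.2, NMN library 2 at -15.2, NMN library 1 at -13.04 and NMN library 3 at -4.19, with PBS at -58.5 to -47.7 and cisplatin at 73.5 to 83.6. The mitochondrial mRNA share of the NMN libraries was 28.4%, 25.02%, 22.7% and 27.9% in the order of their numbers, and its part in this order was not tested.

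**Figure D5:**
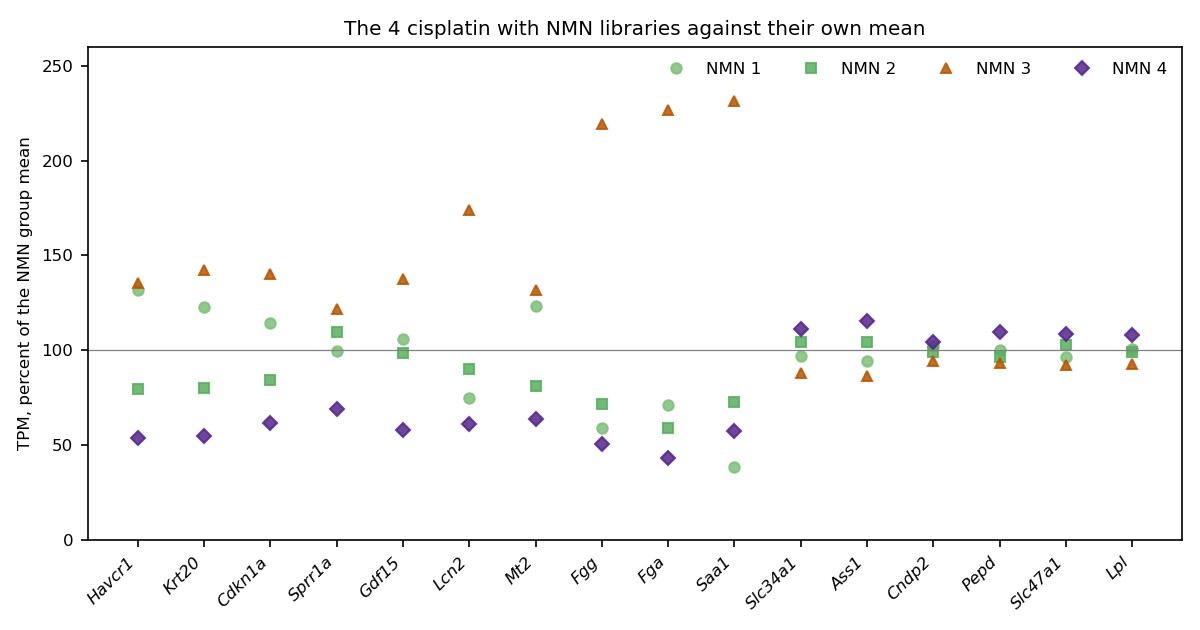
TPM of 10 genes that rose and 6 that fell in each of the 4 NMN libraries, as a percent of the NMN mean (vertical axis). NMN library 3 is highest for each of the 10 raised genes and NMN library 4 is lowest or next to lowest, with the reverse order among the genes that fell; Fgg, Fga and Saa1 of NMN library 3 stand far above the other libraries.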

How the data were processed

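RNA from whole kidneys was prepared with an Illumina TruSeq kit, per the labels' protocols. Trim Galore, STAR 2.4.1d, HTSeq 0.6.1, DESeq2 1.10.1 and the build GRCm38 are named in the submitters' processing notes, without role or order; the sources used here give no annotation, strand setting or gene lengths. The authors deposited TPM with 2 decimals for 23982 entries; 94 that share a symbol were summed, which gave 23935 symbols, 5699 of them at 0 throughout. TPM carries no counts, so no counting interval can be given. The 12960 genes that reached 1 TPM in 4 or more of 16 libraries were tested on log2(TPM + 1) with limma 3.58.1 (R 4.3.3): 4 group means, 12 residual degrees of freedom, empirical Bayes with trend and robust, Benjamini-Hochberg over all tested genes.

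In data simulated for NMN against PBS over 12960 genes, the fit found 28.5% of 200 genes altered 1.5-fold, 81% of 200 altered 2-fold and 99% of 200 altered 4-fold. Of the 63, 172 and 214 calls made, 6, 10 and 16 fell on unaltered genes. The altered genes were drawn only from genes with a mean of at least 5 TPM, so these shares do not cover lower genes. Spread shared by replicate number was not simulated. The genes named were the 15 largest called changes per direction without overlap between groups, with a higher group mean of at least 5 TPM and without predicted genes, up to 4 genes with the smallest adjusted p from each of 61 lists, called genes outside the range of PBS and cisplatin, and 25 chosen by name. Isg15, Oas1a, Bst2, Adgre1, Cyp4a10, Gm10681 and the members listed to complete a group lie outside this rule and were chosen after their values were seen. The members and lists were chosen with earlier results of these data known. Positions are from GENCODE vM21 and promoters from RefSeq (GRCm38.p6), which matched 10031 tested genes. Alternatives changed the fit, scaling, pseudocount, filter and libraries. Results for a few genes are not reported here.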

Additional observations from a re-analysis of the deposited data

Results flagged for a closer look

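In 29 of 487 groups of 4 libraries 1 library lay far from the other 3 by Dixon's criterion, which chance alone meets in about 1 in 20 groups. Of the 29, 2 are left out here. Values are TPM, with the range of the other 3 libraries of the group after each.

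Among acute phase and injury genes NMN library 3 held Fga at 155.65 (29.47 to 48.94) and Fgg at 190.90 (43.88 to 62.19). PBS library 1 held the metallothionein Mt2 at 97.88 (153.27 to 163.16). PBS library 2 held Cd14 at 3.62 (0.97 to 1.40) and Csf3r, the neutrophil growth factor receptor, at 2.17 (0.23 to 0.49). PBS library 3 held Bst1 at 3.20 (0.87 to 1.12).

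Low PBS values set apart from 3 libraries at 0 were Ccl20 at 0.21 and Sprr2f at 0.16 in PBS library 2, Cxcl2 at 0.57 in PBS library 3 and Fosl1 at 0.28 in PBS library 4. The B cell gene Cd79a was at 0.17 in PBS library 3 (0.39 to 0.41), and the adipocyte gene Adipoq was at 2.78 in NMN library 2 and at 0 in the other NMN libraries.

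Growth and export genes stood apart in NMN library 3: Abcb1b at 10.81 (4.90 to 5.78), Nop58, of ribosome assembly, at 20.32 (13.43 to 14.42) and Pcna, the replication clamp, at 38.89 (30.68 to 31.11). In PBS library 1 the nucleolar gene Gnl3 was at 14.93 (10.81 to 11.46) and Cyp2s1 at 6.70 (8.81 to 9.02).

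Tubule genes stood apart mainly in NMN library 4, which held Ggt1 at 931.73 (799.76 to 815.73), Cmbl at 257.76 (198.41 to 207.58), Kcnj1, the potassium channel ROMK, at 59.73 (31.12 to 35.76), Kcne1 at 5.98 (8.44 to 8.51) and Pcx, pyruvate carboxylase, at 150.95 (119.29 to 124.36). Pcx also stood apart in PBS library 4, at 187.41 (148.68 to 151.99), where Bsnd was at 23.74 (19.04 to 19.75). Intercalated cell genes were high in NMN library 2: Atp6v1b1 at 80.00 (53.03 to 56.22), Rhcg at 69.86 (48.13 to 51.33) and Insrr at 14.61 (8.25 to 8.81).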

How the results depend on the processing

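No alternative turned the direction of a call among the 246 tested genes named by the rule. Of the 104 that were called, between 80 (without NMN library 3) and 104 kept their call in each alternative. The number of genes lower than PBS was 6 without trend and robust estimation, 96 after median-of-ratios scaling, 132 after quantile normalization, 59 without mitochondrially encoded genes, 23 with at least 5 TPM required and 32 with array weights, beside 15; the cause was not tested. Genes at least 2-fold lower numbered 1 with median-of-ratios scaling, without mitochondrially encoded genes, with a pseudocount of 0.1, with at least 5 TPM required and with array weights, and 3 with quantile normalization, beside 0. Leaving out 1 library at a time gave 506 to 878 genes higher, 5 to 45 lower, 276 to 381 at least 2-fold higher and 0 to 2 at least 2-fold lower. The lower count was 6 without PBS library 3, PBS library 4 or NMN library 1, 8 without NMN library 2, 5 without NMN library 3 and 45 without NMN library 4.

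No label says that a replicate number marks a shared mouse, litter or day. The deviations of same-numbered PBS and NMN libraries from their group means correlated at 0.165, 0.287, 0.0483 and 0.258 for numbers 1 to 4. Since the third value is under 0.1, a cutoff that the design does not give, the numbers were not taken to pair the libraries. Every PBS library correlated best with its own number, a hint of pairing from the data and not the design, but NMN library 3 correlated better with PBS library 2 (0.0805). Umod and Slc12a3 were lower in each of the 4 same-numbered pairs, and neither passed the test with the replicate block (limma, adjusted p = 0.715 and 0.12). The summed thick ascending limb list was at 934, 878, 1381 and 1912 TPM in PBS libraries 1 to 4. In NMN libraries 1 to 4 it was at 723, 754, 984 and 1586 TPM. The summed endothelial list was at 209, 406, 364 and 233 TPM in PBS libraries 1 to 4. In NMN libraries 1 to 4 it was at 193, 318, 257 and 214 TPM. The summed fibroblast and dendritic cell lists likewise kept the same order of numbers in both groups. So did the second principal component, at -30.02, 11.61, 5.314 and -17.85 for PBS and -10.68, 21.85, 14.03 and -4.446 for NMN. The summed proximal tubule list did not follow the numbers in this way. If the numbers do mark pairs, the main fit counts such shared spread as noise, which limits its lists without a call. With the replicate number as a block, 811 genes were higher and 51 lower, and 14 of 142 named genes without a call gained one while none of 104 lost its call. TPM without depth limits what can be said of genes near 1 TPM. The median SE of a change was 0.18 on the log2 scale, or 0.16 for genes at 5 TPM or more.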

Other observations

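Receptors of the tumour necrosis factor family rose while Tnf itself stayed below the level for testing. Of 13 measured genes of the family, 5 rose and none fell. Tnfrsf12a, the receptor of TWEAK, was at 14.8, 16.1, 20.5 and 13.7 TPM with PBS and at 213, 136, 254 and 98.2 TPM in the NMN libraries (change 3.27, adjusted p = 3.1e-08). Eda2r, which is induced by p53 in many tissues, went from 0.148 ± 0.141 TPM to 3.78 ± 1.3 TPM and Tnfrsf10b, a death receptor, from 1.1 ± 0.318 TPM to 5.33 ± 2.44 TPM (SD, n = 4 each). Of 16 genes of claudins and other tight junction proteins, 4 rose, all claudins: Cldn4 from 10.8 ± 2.58 TPM to 70.7 ± 15.4 TPM (change 2.60), Cldn1, Cldn3 and Cldn7. Of 11 genes of the EGF receptor family and its ligands, Hbegf (7.71, 9.15, 7.09 and 8.47 TPM with PBS, 16.7, 16.5, 20.8 and 14.6 TPM in the NMN libraries) and Nrg1 rose. Of all tested genes, 5.89% rose.

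Matrix genes rose in part: 8 of 27 measured, and 5 without NMN library 3. Timp1, an inhibitor of matrix proteases, was at 0.53, 2.64, 2.52 and 0.11 TPM with PBS and at 10.3, 11.7, 15.1 and 10.5 TPM in the NMN libraries (change 2.57, adjusted p = 6.62e-05). The basement membrane genes Lama5, Lamc1 and Col18a1 rose with changes of 1.17, 0.78 and 1.08. Single genes rose in 3 further lists, beside 5.89% of all tested genes. Of 25 heat shock and chaperone genes, 1 rose: Hspb1, a small heat shock protein, from 30 ± 15.6 TPM to 86.1 ± 27.7 TPM (SD, n = 4 each). Of 22 circadian clock genes, 1 rose, Nfil3, from 1.51 ± 0.852 TPM to 3.94 ± 0.531 TPM, and of 25 lysosome genes, 1, Ctsd, from 306 ± 20.5 TPM to 532 ± 78.7 TPM.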
